A study of Ovis aries with 6 samples.

Results

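The glucocorticoid receptor and 8 genes it induces were described in cultured endothelial cells (VECs) that cover the leaflets of the sheep mitral valve, as a readout of corticosteroid in the plasma the cells were given. The 9 genes were found by symbol in the table of gene counts, which has 18865 rows: NR3C1, the receptor itself, and its targets FKBP5, TSC22D3, ZBTB16, SGK1, CRISPLD2, PDK4, GLUL and CEBPD. All 9 passed the filter on low counts, together with 14317 other genes. The cultures had been kept for 24 h with plasma of infarcted sheep (post-MI, for myocardial infarction; 3 libraries) or with plasma of naive sheep (3 libraries). Both groups therefore received sheep plasma, and no culture without plasma was analysed here. The labels give no breed, sex or age of the sheep, no time between infarction and bleeding and no share of plasma in the medium. They also leave unsaid whether replicates are separate cultures, cell donors or plasma donors, so the p-values speak of the spread among these libraries, possibly a technical one. Corticosteroid levels of the plasma were not analysed here.

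Cortisol, the main glucocorticoid of sheep, enters cells and binds the receptor, which waits in the cytoplasm in a complex with HSP90 and its co-chaperones. The bound receptor moves to the nucleus, where it switches on genes such as FKBP5 and TSC22D3 and damps inflammatory genes. In many cell types the active receptor also lowers its own mRNA, while FKBP5 protein lowers the receptor's affinity for hormone and so closes a feedback loop. Several of the targets answer to other signals too: SGK1 to serum and osmotic stress, PDK4 to fasting signals through PPAR and FOXO factors, and CEBPD to inflammatory cytokines.

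Libraries held 14858472 to 18747848 counts with post-MI plasma and 17446474 to 20672794 with naive plasma. Naive replicate 1 stood apart from the rest: along principal component 1 of the 500 most variable genes (59.2% of their variance) it was at 52.3 and the other 5 libraries between -18.5 and 0.498. The 10 endothelial markers, PECAM1 and CDH5 among them, were all tested and summed to 3189 to 4262 CPM, the count scaled to 1e6 counts of the library after TMM scaling, in the post-MI and 3011 to 3498 CPM in the naive libraries. The cultures also held transcripts of mesenchymal type. The 9 markers of fibroblasts and interstitial cells summed to 14193 to 18822 CPM in post-MI and 11058 to 20720 CPM in naive libraries, with none at 0. Most of each sum came from the collagen genes COL1A1, COL1A2 and COL3A1. DCN of the same list was at 16.0 to 25.3 CPM in post-MI and 5.71 to 55.8 CPM in naive libraries. These genes were named after their values were seen. The 5 smooth muscle markers with a row summed to 4383 to 6063 CPM in post-MI and 840 to 4864 CPM in naive libraries, with naive replicate 1 lowest. Leukocyte markers summed to 35.5 to 42.5 CPM in post-MI and 35.9 to 59.3 CPM in naive libraries, nearly all of it CD14 and CD68, while the T cell marker CD3E was at most at 0.347 CPM. The pan-leukocyte gene PTPRC was at 0.643 to 1.33 CPM in post-MI and 0.141 to 0.347 CPM in naive libraries. These rest on few counts, 12, 12 and 23 in post-MI and 4, 6 and 3 in naive replicates 1, 2 and 3. Its log2 fold change of post-MI over naive plasma was 2.01 ± 0.54 (SE; edgeR adjusted p = 0.443). The part of these other transcripts in the results was not tested, and in bulk samples fewer cells of a type and less RNA per cell cannot be told apart.

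The receptor and its targets differed in direction between the plasmas, and none passed the test. FKBP5 and ZBTB16 lay higher in every post-MI library than in every naive library, and NR3C1 and SGK1 lay lower, while the CPM of the other 5 genes overlapped. The log2 fold change was above 0 for 6 of the 9 genes and below 0 for 3, with a median of 0.17, against 47.9% positive and a median of -0.01 over all 14326 genes tested. The 3 below 0 were the receptor NR3C1 and the targets SGK1 and CEBPD. Leaving out 1 naive library moved the median of the 9 to 0.29 (replicate 1), 0.09 (replicate 2) or 0.32 (replicate 3), each with 6 above and 3 below 0. Without post-MI replicate 2 the split was also 6 and 3 (median 0.15). It was 5 and 4 without post-MI replicate 1 (median 0.20) or post-MI replicate 3 (median 0.15). Leaving out naive replicate 1 with post-MI replicate 3 gave 5 and 4 as well, with a median of 0.10. edgeR's quasi-likelihood test called 0 of the 9 at an adjusted p of 0.05, as it did for 0 of all genes (0% of genes tested), with adjusted p-values of 0.563 to 0.897 for the 9. Without adjustment, 2 members (ZBTB16 and PDK4) passed 0.05 in the higher direction, where 4.61% of all tested genes did, and 1 (SGK1) in the lower direction, where 4.08% did. The CPM of 2 members lay wholly above naive, against 8.32% of all tested genes, and those of 2 wholly below, against 7.82%. DESeq2 called 0 members, and 1.09% of its tested genes higher and 0.471% lower. limma-voom called 0 members and 0 genes.

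**Figure D1:**
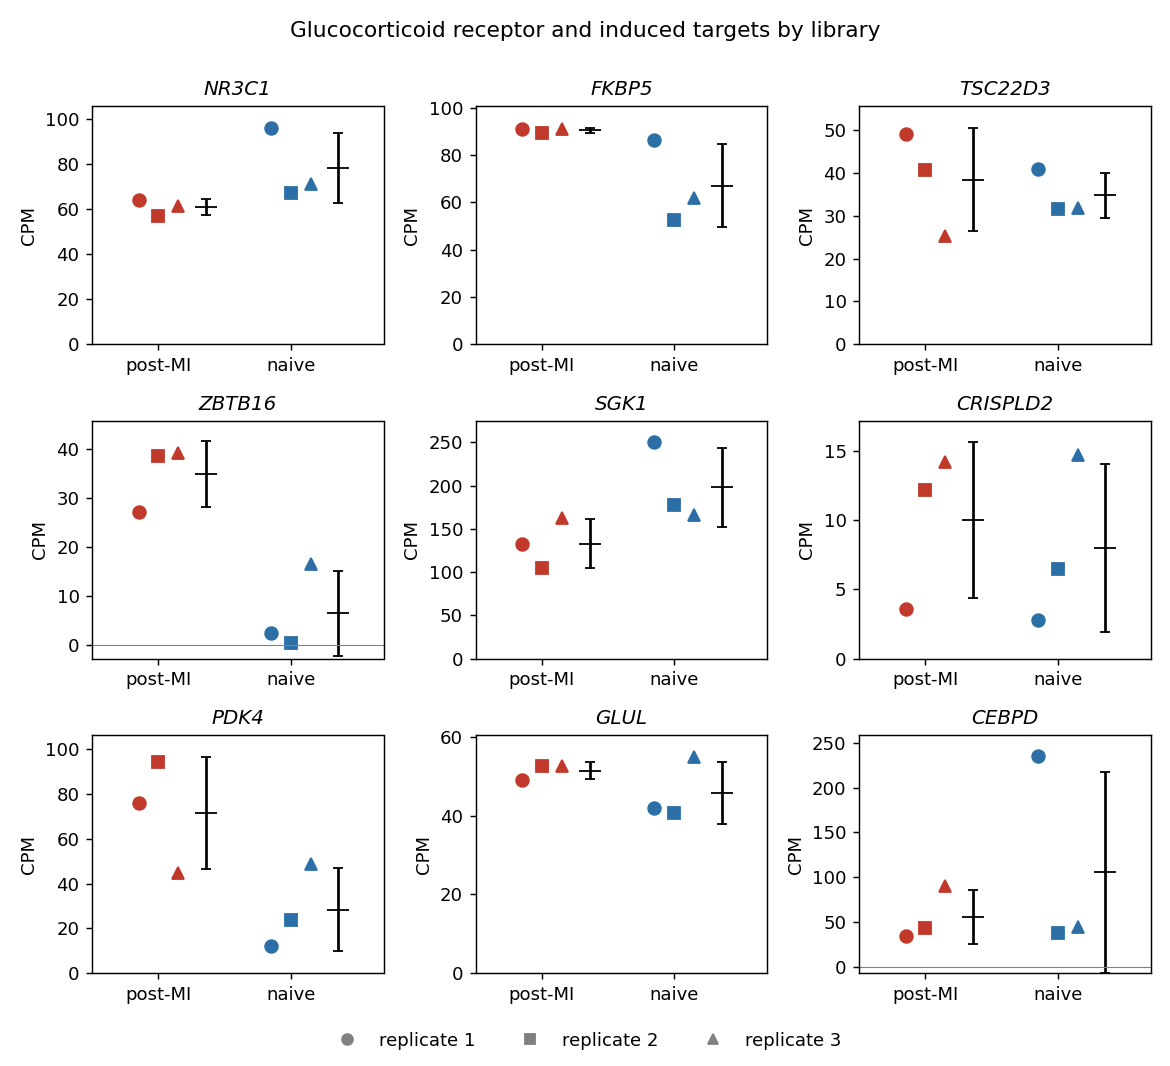
TMM-scaled CPM (vertical axis from 0 or below) of the receptor and its 8 targets in the 3 post-MI (red, left) and 3 naive (blue, right) libraries, with marker shape for the replicate number and black bars for mean ± SD. FKBP5 sits at 89.3 to 91.2 CPM in the post-MI libraries, and ZBTB16 spans 0.463 to 16.4 CPM in the naive libraries.

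NR3C1 encodes the receptor. It was at 64.1, 57.0 and 61.6 CPM in post-MI replicates 1, 2 and 3, against 96.2, 67.4 and 71.4 CPM in naive replicates 1, 2 and 3. Each post-MI library lay below each naive one, but the highest post-MI value was 0.951 times the lowest naive value, so the gap between the groups was narrower than the spread within either. Means were 60.9 ± 3.58 CPM with post-MI and 78.3 ± 15.6 CPM with naive plasma (SD, n = 3 each). The log2 fold change was -0.36 ± 0.17 (SE; edgeR adjusted p = 0.570). Naive replicate 1 carried much of it, since the log2 fold change was -0.18 without that library.

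FKBP5 encodes the HSP90 co-chaperone that restrains the receptor, and its mRNA is among the most used readouts of glucocorticoid action. It was at 91.2, 89.3 and 91.0 CPM in the post-MI libraries, against 86.5, 52.7 and 61.9 CPM in naive replicates 1, 2 and 3. The post-MI libraries lay within 1.02-fold of each other, and 99.4% of tested genes had a wider post-MI range on the log2 scale. Naive replicate 1 came close to them, since the lowest post-MI value was 1.03 times its value, and the other naive libraries lay well below. Means were 90.5 ± 1.04 CPM with post-MI and 67.1 ± 17.5 CPM with naive plasma (SD, n = 3 each). This gave a log2 difference of 0.43 ± 0.20 (SE; edgeR adjusted p = 0.566). Without naive replicate 1 it was 0.67 and without naive replicate 2 it was 0.29.

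ZBTB16, a zinc finger repressor also called PLZF, is strongly induced by glucocorticoid in many cell types and had the widest separation of the 9. Its raw counts were 506, 562 and 676 in the post-MI libraries, against 47, 8 and 349 in naive replicates 1, 2 and 3. In CPM these were 27.1, 38.4 and 39.0 with post-MI plasma, against 2.35, 0.463 and 16.4 with naive plasma. The naive libraries differed more from each other than naive replicate 3 did from the post-MI libraries: naive replicate 3 was 35.4 times naive replicate 2, and the post-MI mean was 2.12 times naive replicate 3. Only 0.223% of tested genes had a wider naive range on the log2 scale. The means were 34.8 ± 6.70 CPM with post-MI and 6.40 ± 8.71 CPM with naive plasma (SD, n = 3 each). The log2 fold change was 2.43 ± 0.98 (SE; edgeR adjusted p = 0.566), a 5.38-fold difference that did not pass the test. Naive replicate 3 set its size, since it was 4.59 without that library (edgeR adjusted p = 0.352) and 1.89 to 2.58 with any other single library left out.

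TSC22D3 encodes GILZ, a leucine zipper protein that carries part of the anti-inflammatory action of glucocorticoids. It was at 49.1, 40.8 and 25.4 CPM in post-MI replicates 1, 2 and 3, against 40.9, 31.6 and 31.8 CPM in naive replicates 1, 2 and 3. Post-MI libraries held both the highest and the lowest value, so the naive range lay within the post-MI range. The log2 fold change was 0.15 ± 0.25 (SE; edgeR adjusted p = 0.868), and leaving out post-MI replicate 1 gave -0.07, leaving out post-MI replicate 3 gave 0.37. Post-MI replicate 3, the library with its lowest level, was the one with the highest ZBTB16.

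SGK1 encodes a serum- and glucocorticoid-induced kinase that regulates ion channels and cell survival. It was at 132, 105 and 162 CPM in the post-MI libraries, against 250, 178 and 166 CPM in naive replicates 1, 2 and 3. The order was the reverse of that for FKBP5 and ZBTB16, with all post-MI libraries below all naive ones, although post-MI replicate 3 reached 0.976 times the lowest naive value. Means were 133 ± 28.1 CPM with post-MI and 198 ± 45.7 CPM with naive plasma (SD, n = 3 each). The log2 fold change was -0.57 ± 0.23 (SE; edgeR adjusted p = 0.566), and it ran from -0.74 without post-MI replicate 3 to -0.36 without naive replicate 1.

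PDK4 encodes a kinase that inhibits pyruvate dehydrogenase. It was at 76.1, 94.1 and 44.5 CPM in post-MI replicates 1, 2 and 3, against 12.3, 23.7 and 48.6 CPM in naive replicates 1, 2 and 3. The groups overlapped through a single pair, post-MI replicate 3 and naive replicate 3. Means were 71.5 ± 25.1 CPM with post-MI and 28.2 ± 18.6 CPM with naive plasma (SD, n = 3 each). The log2 fold change was 1.34 ± 0.50 (SE; edgeR adjusted p = 0.563, DESeq2 adjusted p = 0.167), the smallest adjusted p of the 9 in both tools. It was 1.99 without naive replicate 3 and 0.99 without naive replicate 1.

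CRISPLD2, a secreted protein that binds bacterial lipopolysaccharide, had few reads in some libraries. Counts were 67, 179 and 246 in the post-MI and 56, 112 and 312 in the naive libraries, or 3.59, 12.2 and 14.2 CPM against 2.80, 6.48 and 14.7 CPM. The fold between the highest and lowest library was 3.95 within the post-MI and 5.23 within the naive group, with replicate 1 lowest in each. At 0.32 ± 0.67 (SE; edgeR adjusted p = 0.897) its log2 fold change was positive, and it turned to -0.08 without naive replicate 1 and to 1.11 without naive replicate 3.

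GLUL encodes glutamine synthetase, a classic glucocorticoid-induced enzyme of muscle and lung. It was at 49.1, 52.6 and 52.8 CPM in the post-MI libraries, against 42.1, 40.6 and 55.0 CPM in naive replicates 1, 2 and 3. Naive replicate 3 lay above all post-MI libraries and the other naive libraries below them. Means were 51.5 ± 2.04 CPM with post-MI and 45.9 ± 7.94 CPM with naive plasma (SD, n = 3 each). This gave a log2 difference of 0.17 ± 0.15 (SE; edgeR adjusted p = 0.742), with 0.09 when naive replicate 2 and 0.32 when naive replicate 3 was left out.

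CEBPD encodes C/EBP-delta, a transcription factor of the acute phase response. It was at 34.4, 42.7 and 90.1 CPM in post-MI replicates 1, 2 and 3, against 235, 37.6 and 43.9 CPM in naive replicates 1, 2 and 3. Its one high library, naive replicate 1, was at 5.77 times the mean of naive replicates 2 and 3, and post-MI replicate 3 came next. At -0.92 ± 0.75 (SE; edgeR adjusted p = 0.703) its log2 fold change was negative, and it turned to 0.45 without naive replicate 1. With naive replicate 1 and post-MI replicate 3 both left out, a choice made after seeing the data, it was -0.07.

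**Figure D2:**
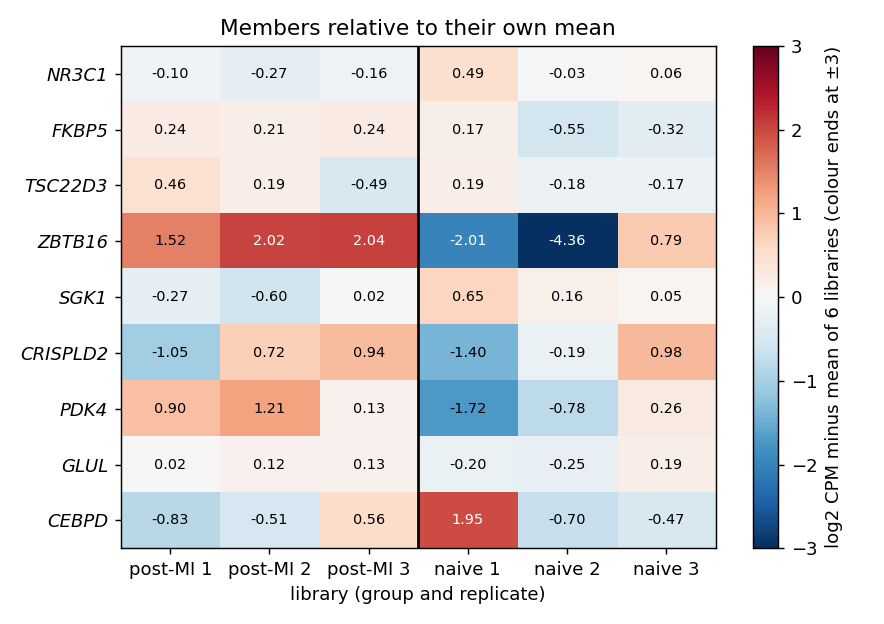
Log2 CPM of each gene (rows) in each library (columns, post-MI left and naive right of the line) minus the mean of its 6 libraries, printed in the cells and coloured from blue (low) to red (high). ZBTB16 runs from -4.36 in naive replicate 2 to 2.04 in post-MI replicate 3, and CEBPD reaches 1.95 in naive replicate 1.

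No library was high or low for the whole set. Naive replicate 1 was highest of the 6 libraries for 3 members (NR3C1, SGK1 and CEBPD) and lowest for 2 (CRISPLD2 and PDK4). Naive replicate 2 was lowest for 3 (FKBP5, ZBTB16 and GLUL) and highest for 0, and naive replicate 3 was highest for 2 (CRISPLD2 and GLUL) and lowest for 0. For ZBTB16, CRISPLD2 and PDK4, naive replicate 3 was 6.97, 5.23 and 3.95 times naive replicate 1. The naive CPM of ZBTB16, CEBPD, CRISPLD2 and PDK4 spanned 4.87, 2.64, 2.35 and 1.97 on the log2 scale, and 0.223%, 2.51%, 3.39% and 5.34% of tested genes had a wider naive range. By contrast NR3C1, SGK1 and TSC22D3 had naive ranges of 0.51, 0.60 and 0.37, exceeded by 50.7%, 43.0% and 66.7% of genes.

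With fewer libraries more genes are free of overlap, and the background in comparisons of 5 libraries was 10.3% to 16% of genes higher and 9.68% to 16% lower. PDK4 joined the higher genes when either group lost its replicate 3, and GLUL when naive replicate 3 was left out. Without naive replicate 1 and post-MI replicate 3, TSC22D3 and PDK4 joined them, with 22.5% of all genes higher and 24.5% lower.

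**Figure D3:**
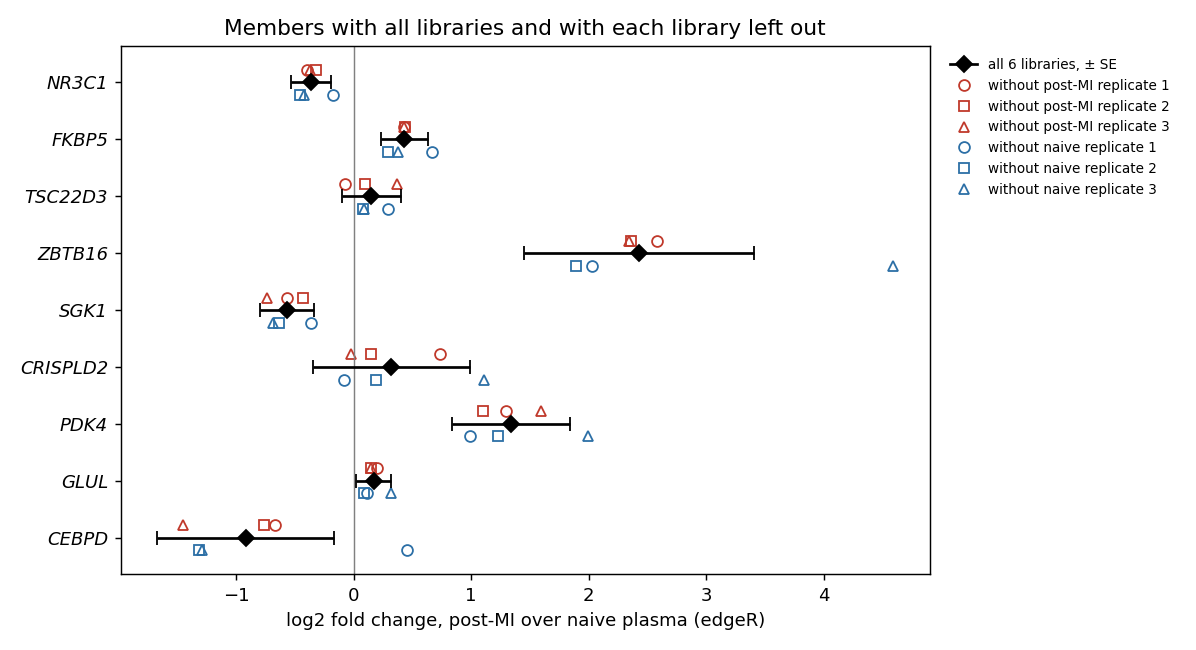
Log2 fold change of post-MI over naive plasma from edgeR (horizontal axis) for each gene, with all 6 libraries (black diamonds, bars ± SE) and with each library left out (open symbols, red for post-MI and blue for naive, shape for the replicate number). CEBPD crosses 0 without naive replicate 1, and ZBTB16 moves to 4.59 without naive replicate 3.

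Transcripts of the chaperones that hold the receptor ready and of the related receptor NR3C2 did not pass the test. Of the 13 tested, edgeR called 0, as it called 0 of all genes. DESeq2 called 0, against 1.09% of its tested genes higher and 0.471% lower. The log2 fold change was above 0 for 1 and below 0 for 12 (median -0.25), where 47.9% of all tested genes were above 0. The CPM of 3 lay wholly below naive, against 7.82% of all tested genes, and of 0 wholly above, against 8.32%. PTGES3, the p23 co-chaperone that stabilises the hormone-binding complex, was at 65.5, 61.1 and 70.5 CPM in the post-MI libraries, against 86.7, 75.5 and 94.8 CPM in the naive libraries (log2 fold change -0.38 ± 0.14, SE; edgeR adjusted p = 0.561). HSP90AA1, the inducible HSP90, was at 560, 808 and 935 CPM with post-MI plasma, against 1225, 1023 and 1041 CPM with naive plasma (log2 fold change -0.51 ± 0.22, SE; edgeR adjusted p = 0.566). STIP1, which links HSP70 to HSP90, gave -0.35 ± 0.16 and HSPA8, the constitutive HSP70, -0.41 ± 0.19 (SE). FKBP4, the co-chaperone that competes with FKBP5 for HSP90, gave -0.12 ± 0.17 (SE) and was named after its values were seen. The counts of 12 and 1 were the same under each scaling of the libraries, and 9 and 4 without post-MI replicate 1. They were 11 and 2 without naive replicate 2 or naive replicate 3. Without naive replicate 1 they stayed at 12 and 1, with a median of -0.15.

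Genes that convert or carry corticosteroid had few reads, apart from H6PD and SRD5A1. The mineralocorticoid receptor NR3C2, which also binds cortisol, was at 4.39 to 5.95 CPM with post-MI and 3.65 to 11.1 CPM with naive plasma. HSD11B1, which regenerates cortisol from cortisone, had 0, 0 and 2 counts in the post-MI and 3, 0 and 2 counts in the naive libraries. All were at or under the floor of 3 counts per library, which is 0.145 to 0.202 CPM before TMM scaling. HSD11B2, which inactivates cortisol, had 29, 20 and 1 counts in post-MI replicates 1, 2 and 3, against 2, 8 and 8 counts in the naive libraries, and did not pass the count filter. The rows of the binding globulin SERPINA6 and the efflux pump ABCB1 had 0 counts in all 6 libraries, which allows up to the same floor and covers counting error only. HSD11B2, NR3C2, HSD11B1, SERPINA6 and ABCB1 were named after their values were seen. H6PD, which feeds NADPH to HSD11B1, was at 28.8, 25.9 and 31.8 CPM with post-MI plasma, against 18.9, 23.2 and 25.2 CPM with naive plasma (log2 fold change 0.36 ± 0.16, SE; edgeR adjusted p = 0.566). SRD5A1, a steroid reductase, gave -0.22 ± 0.21 (SE).

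Coregulators of the receptor differed little. Of 10 tested, 3 had log2 fold changes above 0 and 7 below (median -0.03), where 47.9% of all tested genes were above 0. edgeR called 0 of them, as it called 0 of all genes. DESeq2 called 0, against 1.09% of its tested genes higher and 0.471% lower. The acetyltransferase CREBBP, the remodeller SMARCA4 and the mediator subunit MED1 gave log2 fold changes of 0.14 ± 0.12, -0.11 ± 0.13 and -0.07 ± 0.13 (SE).

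Other genes that glucocorticoids induce were divided. Of 18 tested, 8 had log2 fold changes above 0 and 10 below (median -0.07), where 47.9% of all tested genes were above 0. edgeR called 0, as it called 0 of all genes. DESeq2 called 2 higher, ERRFI1 and FOXO1, against 1.09% of its tested genes. The CPM of 4 lay wholly above naive (ERRFI1, FOXO1, PER1 and FOXO3), against 8.32% of all tested genes. That of 1, the G protein regulator RGS2, lay wholly below, against 7.82%. ERRFI1, an inhibitor of the EGF receptor, was at 100, 75.8 and 90.0 CPM in the post-MI libraries, against 55.7, 41.6 and 45.2 CPM in the naive libraries. Its log2 fold change was 0.90 ± 0.17 (SE; edgeR adjusted p = 0.300, DESeq2 adjusted p = 0.00217), higher in 3 of 3 post-MI libraries. FOXO1, a transcription factor of fasting and vessel quiescence, was at 150, 141 and 140 CPM with post-MI plasma, against 86.0, 109 and 91.8 CPM with naive plasma (log2 fold change 0.59 ± 0.14, SE; edgeR adjusted p = 0.372, DESeq2 adjusted p = 0.0193).

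PER1, a clock gene with glucocorticoid response elements, was at 60.8, 68.8 and 72.8 CPM in the post-MI libraries, against 32.2, 20.4 and 52.4 CPM in naive replicates 1, 2 and 3. Naive replicate 3 was its highest naive library, as for ZBTB16 and PDK4. Its log2 fold change was 0.95 ± 0.32 (SE; edgeR adjusted p = 0.555). FOXO3 gave 0.41 ± 0.15 (SE). Against these, the phosphatase DUSP1 gave -0.49 ± 0.19, the repressor BCL6 -0.81 ± 0.32 and RGS2 -0.73 ± 0.30 (SE), and the 3 were named after their values were seen. KLF9, a common early target, was at 15.4, 15.9 and 10.7 CPM with post-MI plasma, against 8.81, 8.92 and 15.1 CPM with naive plasma, and was likewise named after its values were seen. The balance of signs in this list was not stable. Without naive replicate 1 there were 11 above and 7 below 0 (median 0.15). Without naive replicate 3 (median 0.10), with limma-voom and with the replicate block (median 0.04 in both) there were 10 and 8.

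Inflammatory genes that glucocorticoids damp had their highest summed level in naive replicate 1, with IL6, at 1102 CPM there, and CXCL8 as the main contributors. The 13 with a row summed to 368, 270 and 774 CPM in the post-MI libraries, against 2530, 334 and 269 CPM in naive replicates 1, 2 and 3. Of 10 tested, 7 had log2 fold changes below 0 and 3 above (median -1.73), where 47.9% of all tested genes were above 0. edgeR called 0 of them, as it called 0 of all genes. DESeq2 called 0 of those it gave an adjusted p, against 1.09% of its tested genes higher and 0.471% lower. Without naive replicate 1 the counts below and above 0 were 3 and 7 and the median 0.37. Without post-MI replicate 3 they were 10 and 0 and the median -2.71. The 3 above 0 were highest in post-MI replicate 3, where SELE was at 40.5, ICAM1 at 361 and CCL2 at 26.7 CPM, against 4.75, 298 and 22.9 CPM in naive replicate 1. IL6, SELE, ICAM1 and CCL2 were named after their values were seen. PTGS2, the inducible prostaglandin synthase, was at 10.3, 7.10 and 13.0 CPM in the post-MI libraries, against 255, 20.7 and 16.9 CPM in naive replicates 1, 2 and 3 (log2 fold change -3.26 ± 1.08, SE; edgeR adjusted p = 0.549). CXCL8, a neutrophil chemokine, was at 7.61, 3.14 and 96.4 CPM with post-MI plasma, against 649, 24.0 and 38.8 CPM with naive plasma, and its row under the older symbol IL-8 is counted in the list as well. DESeq2 gave no adjusted p for PTGS2 and for these 2 rows. The cytokines LIF and IL1A gave log2 fold changes of -2.74 ± 1.41 and -1.87 ± 1.07 (SE; edgeR adjusted p = 0.584 and 0.611). LIF had 10, 11 and 17 counts in the post-MI libraries, against 285, 13 and 3 in naive replicates 1, 2 and 3. For LIF, limma-voom gave -0.67. IL1A was at 0.214, 0.82 and 5.14 CPM with post-MI plasma, against 13.5, 1.79 and 7.33 CPM with naive plasma. Naive replicate 1 was also the library with the highest NR3C1, SGK1 and CEBPD, and the part of its overall state in those values was not tested.

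**Figure D4:**
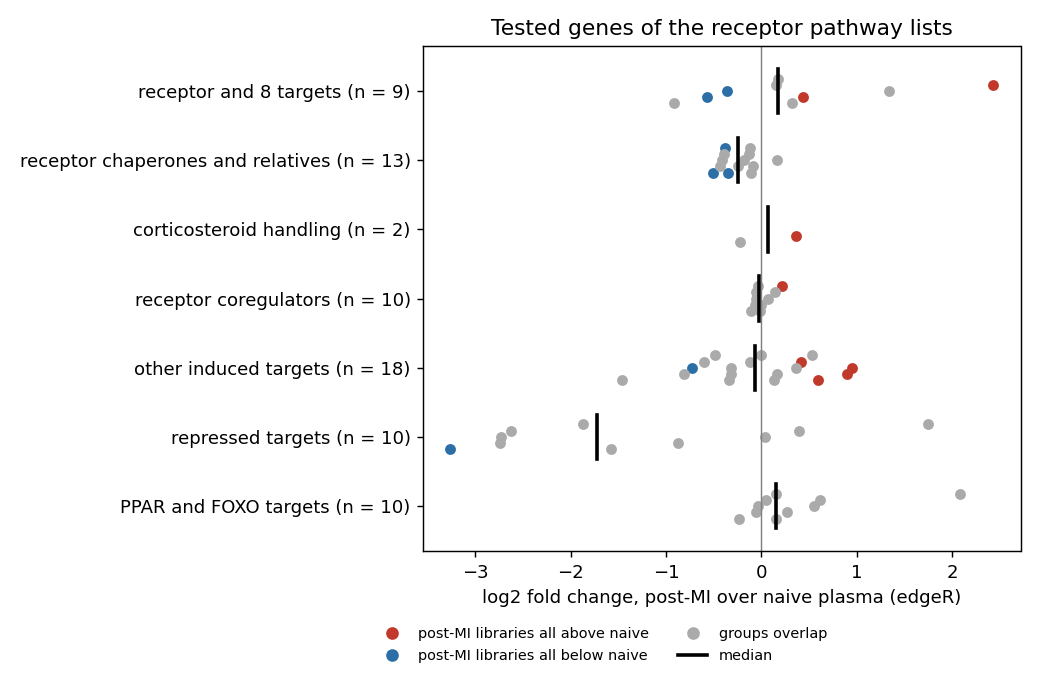
Log2 fold change of post-MI over naive plasma from edgeR (horizontal axis) for the tested genes of each list (rows), with red for genes whose post-MI libraries all lie above the naive ones, blue for all below, grey for overlap and a black line at the median. The chaperone list has 12 of 13 genes below 0 and the repressed targets spread from -3.26 to 1.74.

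The genes most like NR3C1 and FKBP5 across the 6 libraries were sought among 10675 others whose log2 CPM averaged 3 or more, by the root mean square difference of log2 CPM centred on each gene's own mean. For NR3C1 these were RASIP1, a regulator of endothelial junctions and vessel lumens (0.04), THAP5, a zinc finger protein (0.05), and COQ10B, which binds coenzyme Q (0.05). RASIP1 was at 96.8, 88.2 and 90.3 CPM with post-MI plasma, against 136, 103 and 105 CPM with naive plasma, which repeats the high value of NR3C1 in naive replicate 1. For FKBP5 they were the provisional loci LOC114116387 (0.08) and LOC114113987 (0.11) and the gene NHSL1 (0.12). None of the other 8 members was among the 3 nearest genes of NR3C1, nor among those of FKBP5. With 3 places among 10675 genes, this absence does not show whether the members vary together.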

How the data were processed

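Messenger RNA of 6 VEC cultures was sequenced with a stranded kit as paired ends of 150 bp, per the labels' protocols. The submitters' processing notes name the build Oar_v3.1 and the tools DESeq2 1.26.0, featureCounts 2.0.0, STAR 2.5.2b, SAMtools 1.9, MultiQC 1.5 and FastQC, but neither an annotation nor a strand setting. The authors deposited a table of raw counts with 18865 gene symbols. In the files deposited per sample the signal is the count divided by a library factor (100% of counts above 0, tolerance 0.01%), and were used for that check alone. A RefSeq gene table of another assembly holds all 9 symbols, and no coordinates are given. Reads of overlapping or near-identical genes could be shared; CXCL8 also has a row under an older symbol.

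In R 4.3.3, genes passing edgeR 4.0.16's filterByExpr (minimum count 10, minimum total 15; 14326 genes) were scaled by TMM and tested by its quasi-likelihood test with Benjamini-Hochberg adjustment over all of them at 0.05. Positive log2 fold changes are higher with post-MI plasma, and their SE was their absolute value divided by the root of F. CPM are TMM-scaled; SD is over 3 libraries. Ranges on the log2 scale add 0.1 CPM. Principal components used log2 CPM with a prior count of 2. No gene lengths were used, so levels were not compared between genes, apart from CPM sums over lists and their main contributors. Alternatives were DESeq2 1.42.0, limma 3.58.1 voom, other scalings, other filters, a block for the replicate number and fits that left out each library. The scripts were tested on simulated data with 200 changed genes.

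Named genes are the 9 members, up to 4 per further list with the smallest edgeR p, and the 3 nearest genes of NR3C1 and of FKBP5; others are marked, and 1 gene of the rule is not reported here. Members and lists were chosen with earlier results of these data known. The further lists are receptor chaperones and relatives, corticosteroid handling, coregulators, other induced targets, repressed targets, PPAR and FOXO targets, and cell type markers (endothelial, fibroblast and interstitial, smooth muscle, leukocyte, red cell and platelet).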

Additional observations from a re-analysis of the deposited data

How the results depend on the processing

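edgeR's count of 0 called genes became 218 with the DESeq2 Wald test (152 higher, 66 lower) and 3 without naive replicate 1 and post-MI replicate 3, an alternative chosen after seeing the data. The 3 were CLEC1A, IL1R1 and LOC101112335, all higher with post-MI plasma. It was 0 with limma-voom (1185 genes at an unadjusted p under 0.05, against 1244 in edgeR), DESeq2 size factors, plain library totals, both other filters and each library left out. Of 126 member values under these alternatives 121 kept their sign and none passed the threshold. The 5 that turned were TSC22D3 without post-MI replicate 1 (-0.07), CRISPLD2 without post-MI replicate 3 (-0.02) or naive replicate 1 (-0.08) or both (-0.43), and CEBPD without naive replicate 1 (0.45). With libraries left out TSC22D3 ran from -0.07 to 0.52, CRISPLD2 from -0.43 to 1.11 and CEBPD from -1.45 to 0.45. The cause was not tested. Deviations of same-numbered libraries correlated at 0.151, -0.109 and 0.0924 over genes for replicates 1, 2 and 3. Those of libraries with different numbers correlated at -0.308 (post-MI replicate 1 with naive replicate 3) to 0.241 (post-MI replicate 2 with naive replicate 3). Whether the replicate numbers pair the libraries was not tested. With the replicate block edgeR also called 0 genes, with ZBTB16 at 3.35, PDK4 at 1.52 and CEBPD at -0.43. limma-voom gave ZBTB16 3.56. The median log2 fold change of all genes was -0.04 with plain library totals and -0.01 with TMM.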

Other observations

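PDK4 is also a target of PPAR and FOXO factors. Of 10 other tested targets of these, 7 had positive and 3 had negative log2 fold changes (median 0.15). Over all tested genes 47.9% were positive. edgeR called 0 of the 10, as it called 0 of all genes. DESeq2 called 0, against 1.09% of its tested genes higher and 0.471% lower. FABP4, a fatty acid binding protein, was at 21.4, 28.4 and 4.21 CPM with post-MI plasma, against 3.70, 0.753 and 8.22 CPM with naive plasma (log2 fold change 2.08 ± 0.89, SE; edgeR adjusted p = 0.566). SESN1, KLF6 and TXNIP gave 0.55 ± 0.34, 0.27 ± 0.22 and 0.61 ± 0.52 (SE). Of 6 red cell and platelet genes, 3 had a row in the table and could be read (HBB, HBA1 and PF4 could not). ALAS2 and PPBP had 0 counts in all libraries, and ITGA2B was at 3.46 to 5.90 CPM with post-MI and 4.98 to 5.36 CPM with naive plasma.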
